A study of Homo sapiens with 4 samples.

Results

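SR proteins and heterogeneous nuclear ribonucleoproteins (hnRNPs) are the RNA-binding proteins that most often decide which splice sites a cell uses. They were followed here in Jurkat cells in which ARIEL, a long non-coding RNA of T-cell acute lymphoblastic leukaemia, had been depleted. Members were taken by gene name from the deposited table: every name that starts with SRSF or HNRNP, together with TRA2A, TRA2B, PTBP1, PTBP3, SRRM1 and SRRM2, pseudogenes left out. This gave 39 genes of the 22361 genes and loci in the table, all typed as protein-coding in GENCODE 29. HNRPLL is listed under its newer name HNRNPLL, and SRSF8 is not analysed here.

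Jurkat is a human T-cell leukaemia line. In 2 control libraries the cells carried a lentiviral shRNA against GFP and in 2 knockdown libraries an shRNA against ARIEL. Both groups were selected with puromycin at 0.7 µg/ml for at least 36 h and harvested 72 h after infection. How many different hairpins stood behind each target, and whether the 2 libraries of a group came from separate cultures, is not stated, so p-values cover only the spread seen between these libraries. Where 1 library is left out below, 2 libraries are set against 1, so a result can also be lost through the smaller number of libraries. Each value is a regularised log (rlog) in log2 units. The rlog transform pulls differences towards 0, most strongly for weakly expressed genes. At high levels too, rlog differences were smaller than the authors' deposited log2 fold changes. Their median sizes were 0.08 and 0.15 in rows with a mean rlog of at least 13, and 0.04 and 0.08 in the members. Fold changes are given from the authors' deposited table; whether these too were shrunken towards 0 is not stated, so the folds and their intervals may understate the changes.

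The locus taken as ARIEL from background knowledge, XLOC_005968, was 1.40 lower in knockdown libraries (-1.40 ± 0.04, SE, n = 2 per group; limma, adjusted p = 1.22e-249). ARID5B, the neighbouring transcription factor gene on chromosome 10, differed by -0.46 ± 0.03. Both are rlog differences. In the authors' deposited table the locus taken as ARIEL was 6.5-fold lower and ARID5B 1.77-fold lower. All 12 T-cell markers checked, TAL1 and LMO1 among them, passed the filter on low values. In knockdown libraries 3 of them were higher and 6 lower, a larger share than the 44.4% of all tested rows. CD3D stayed between 15.42 and 15.44 in the 4 libraries. CD5 went from 12.60 and 12.58 in control to 12.28 and 12.27 in knockdown libraries. CD3G went from 14.50 and 14.47 to 14.20 and 14.16, and CD7 rose from 12.46 and 12.52 to 12.73 and 12.72. TAL1 went from 15.22 and 15.21 to 14.97 and 15.00, and LMO1 from 9.22 and 9.27 to 9.43 and 9.49. None of the 5 epithelial or 5 erythroid markers passed that filter, and 2 of 6 myeloid markers did, with mean rlog values of at most 4.37. Of 6 B-cell markers 2 passed: CD79A, at 10.91 and 10.99 in control and 11.23 and 11.25 in knockdown libraries, and BLNK, between 4.38 and 4.46, while MS4A1 was listed at 0 throughout. The part of these markers in the results was not tested. The values are relative to the other RNAs of a library, and a lower value may come from fewer cells with the RNA or from less of it per cell, which cannot be told apart here.

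In outline, SR proteins bind exonic enhancers and, through domains rich in arginine and serine, recruit the spliceosome. hnRNPs coat nascent RNA and often repress splice sites, although individual members also activate them. Many genes of both families limit their own level by splicing in a poison exon, which sends the transcript to nonsense-mediated decay (NMD). In GENCODE 29, 29 of the 39 members have at least 1 transcript annotated as an NMD target. SRSF7 has 6 such transcripts of 12 and HNRNPU 9 of 31. The share over all genes was not worked out, and whether these transcripts hold a poison exon was not examined. The table gives 1 value per gene, so it shows the total and not the share of such isoforms.

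Most of these genes had small differences. Of the 39 members, all above the filter (log2 of 10, applied to the mean rlog), 3 rose and 5 fell (limma, adjusted p under 0.05 over all 14601 tested rows, here called). HNRNPAB (chromosome 5), TRA2A (7) and HNRNPM (19) rose. HNRNPA3 (chromosome 2), HNRNPH3 (10) and SRRM1, HNRNPR and SRSF10 (all on 1) fell. That is 20.5% of the members, while 44.4% of all tested rows were called, 22.1% higher and 22.4% lower. The median size of a difference, whichever its sign, was 0.04 for members and 0.07 for all tested rows, and the signed median was 0.00 for both.

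The members are abundant RNAs. Their median rlog of 14.41 lay at percentile 93.7 of the tested rows. Among the 30 members with a mean rlog of at least 13, 5 were called (16.7%), against 54.8% of the 3175 tested rows at that level. The median size of a difference in those rows was 0.08.

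By the authors' deposited table, as many as 10 members had an adjusted p under 0.05, 4 higher and 6 lower, including the same 8 (25.6% of members, against 39.4% of rows, 20.1% higher and 19.3% lower). The largest fold change of a member in the authors' deposited table was 1.23-fold, for HNRNPA3 and HNRNPH3. No member reached 1.5-fold there, a size that 5.73% of its rows passed with an adjusted p under 0.05. The 95% interval of the fold change in the authors' deposited table lay within 1.25-fold in either direction for 32 of the 39 members (82.1%), against 36.3% of tested rows. At a mean rlog of at least 13 it did so for 27 of 30 members (90.0%) and 63.6% of rows. Of the 31 members that were not called, 28 had such an interval, which does not show that there was no change and, if the deposited folds were shrunken, is no strict bound.

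**Figure D1:**
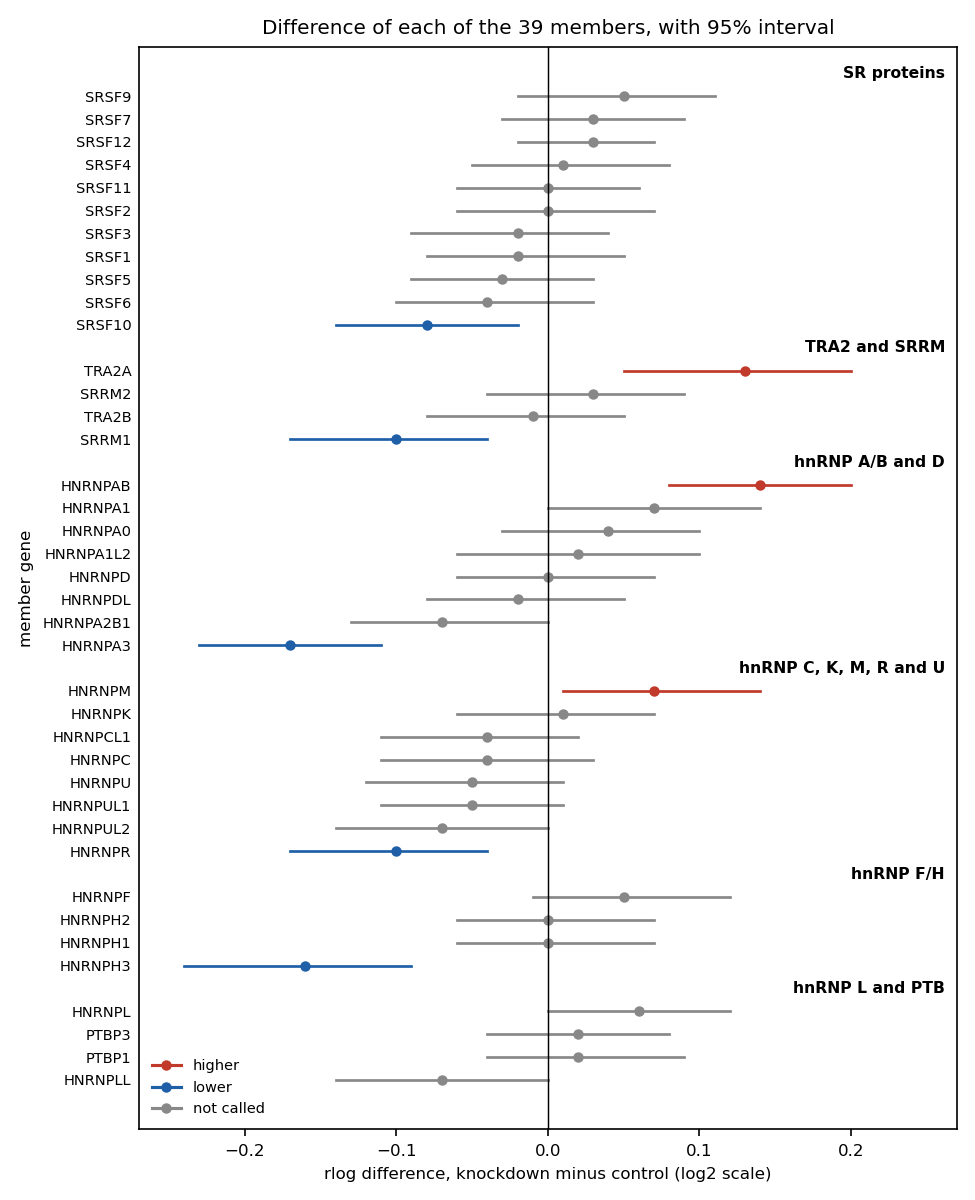
Difference in rlog between knockdown and control libraries (x axis, log2 scale) for each of the 39 members, grouped by family, with points for the fitted difference and bars for its 95% interval from limma. The 3 members called higher are red, the 5 called lower are blue, and the 31 others are grey, with differences between -0.07 and 0.07.

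Among the 11 SR proteins, 1 fell and 10 were not called, with differences between -0.08 and 0.05. SRSF1, the founding member and a potent activator of exon inclusion, had rlog values of 16.07 and 16.04 in control and 16.03 and 16.05 in knockdown libraries. The groups overlapped, and the interval in the authors' deposited table ran from 0.92-fold to 1.05-fold. SRSF3, the smallest SR protein and one that also helps export mRNA, was at 15.93 and 15.90 in control and at 15.89 and 15.89 in knockdown libraries. The knockdown values lay just below both controls, yet the difference of -0.02 ± 0.03 (SE) was within its error. SRSF2 had a difference of 0.00 ± 0.03 at 15.86 and 15.87 against 15.87 and 15.87. SRSF12 is nearly silent in these cells, at 3.78 and 3.79 in control and 3.81 and 3.81 in knockdown libraries, and its interval in the authors' deposited table was wide, from 0.90-fold to 1.41-fold.

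The SR protein that fell was SRSF10, an unusual member that represses splicing when it is dephosphorylated during heat shock. It stood at 14.36 and 14.29 in control and 14.27 and 14.23 in knockdown libraries, and no knockdown value reached the lower control. The difference was -0.08 ± 0.03 (SE, n = 2 per group; limma, adjusted p = 0.0341), 1.10-fold lower in the authors' deposited table. It was not called without control replicate 1 (-0.04, adjusted p = 0.415), without knockdown replicate 1 (-0.10, 0.0564), without knockdown replicate 2 (-0.06, 0.320), or with each library centred on its median (0.0543).

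The SR-related proteins split. TRA2A and TRA2B are paralogues that bind purine-rich enhancers. TRA2A was at 11.38 and 11.35 in control and 11.51 and 11.47 in knockdown libraries, so that both knockdown values were above both controls. It rose by 0.13 ± 0.04 (SE; limma, adjusted p = 0.00535), 1.18-fold in the authors' deposited table, a call that was lost without knockdown replicate 1 (0.11, adjusted p = 0.102). TRA2B, at 15.03 and 15.01 in control and 15.00 and 15.01 in knockdown libraries, differed by -0.01 ± 0.03 and its groups overlapped. TRA2B is the far more abundant of the pair: per kilobase of coding transcript their mean levels were 13.40 and 10.27 on the rlog scale.

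SRRM1 and SRRM2 are large serine- and arginine-rich matrix proteins that scaffold nuclear speckles and bridge splicing factors. SRRM1 was at 12.60 and 12.61 in control and 12.53 and 12.47 in knockdown libraries, with no overlap. In the authors' deposited table SRRM1 was 1.14-fold lower. It fell by 0.10 ± 0.03 on the log2 scale (SE; limma, adjusted p = 0.00820), and it was not called without knockdown replicate 2 (-0.08, adjusted p = 0.222). SRRM2 was the member with the widest spread between libraries of a group: 14.20 and 14.37 in control, 14.36 and 14.27 in knockdown. Its groups overlapped. Its SD within groups was at percentile 99.8 of the rows with a mean rlog of at least 13, and the SE of its log2 fold change in the authors' deposited table was 0.15, against a median of 0.05 for the members. The limma SE of 0.03 rests on the spread shared by rows of one level. Without control replicate 2, limma would call SRRM2 higher (0.11, adjusted p = 0.0102). ELOB and SRRM2-AS1 overlap SRRM2 on the opposite strand in GENCODE 29.

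hnRNP A/B proteins bind UAG-like motifs and silence exons. Of 8 genes in the A/B and D families 1 rose, 1 fell and 6 were not called. HNRNPAB, at 14.35 and 14.34 in control and 14.46 and 14.51 in knockdown libraries, rose by 0.14 ± 0.03 (SE; limma, adjusted p = 7.16e-05). HNRNPA3, at 14.13 and 14.12 in control and 14.01 and 13.90 in knockdown libraries, fell by 0.17 ± 0.03 on the log2 scale (adjusted p = 9.27e-07). Both SEs rest on the spread shared by rows of one level. In limma's linear fit with each row's own spread, neither gene was called (adjusted p = 0.225 for HNRNPA3). Neither gene's groups overlapped, and both calls held in each fit that left out 1 library (adjusted p up to 0.0298 and 0.0336). The log2 gap between the rows (HNRNPAB minus HNRNPA3, not per length) went from 0.22 in each control library to 0.44 and 0.61 in the knockdown libraries. In the authors' deposited table HNRNPAB was 1.19-fold higher and HNRNPA3 1.23-fold lower.

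HNRNPA1 and HNRNPA2B1, the core A/B proteins that shuttle between nucleus and cytoplasm, both missed the threshold in limma's test. HNRNPA1 was at 17.15 and 17.11 in control and 17.19 and 17.21 in knockdown libraries, a difference of 0.07 ± 0.04 (SE; limma, adjusted p = 0.0827). HNRNPA2B1 was at 16.01 and 15.99 in control and 15.92 and 15.94 in knockdown libraries, a difference of -0.07 ± 0.03 (adjusted p = 0.0886). In neither did the groups overlap. Both passed in the authors' deposited table, HNRNPA1 1.09-fold higher (adjusted p = 0.0285) and HNRNPA2B1 1.08-fold lower (0.0394). They are the 2 members whose call differs between the fits. With the trend with GC content and length removed, HNRNPA2B1 was at 0.01 and HNRNPA1 at 0.12. HNRNPD and HNRNPDL, the AU-rich element binders of this group, differed by 0.00 and -0.02, and HNRNPA0 by 0.04.

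Some members have near-identical copies elsewhere in the genome, and how the authors assigned reads that match both is not stated. The coding sequence of HNRNPA1L2, a copy of HNRNPA1 (chromosome 12) on chromosome 13, differs from the closest HNRNPA1 isoform at 15 of 963 positions in GENCODE 29 (98.4% identity), and 98 of its 864 windows of 100 bases, the read length used, also occur in an HNRNPA1 transcript. Over the whole HNRNPA1L2 transcript 285 of 1273 windows do (22.4%). HNRNPCL1, a copy of HNRNPC (chromosome 14) on chromosome 1, differs at 47 of 882 positions and shares 0 of 783 windows. The coding stretches of 60 bases with most differences in each pair are printed because they show what a read has to tell the copies apart, with the differing bases in capitals (coding bases 589 to 648 for the first pair and 626 to 685 for the second, counted from the start codon).
HNRNPA1: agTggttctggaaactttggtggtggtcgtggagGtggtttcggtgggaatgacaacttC
HNRNPA1L2: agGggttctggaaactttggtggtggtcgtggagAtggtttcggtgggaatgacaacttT
HNRNPC: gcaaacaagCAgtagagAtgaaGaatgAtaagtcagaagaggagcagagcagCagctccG
HNRNPCL1: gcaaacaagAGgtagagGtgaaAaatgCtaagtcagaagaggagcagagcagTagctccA

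The first pair differs at 3 of the 60 bases and the second at 7. HNRNPA1L2 had rlog values of 11.11 and 11.05 in control and 11.08 and 11.12 in knockdown libraries, which overlap. HNRNPCL1, with a very low level, was at 5.61 and 5.61 in control and 5.55 and 5.58 in knockdown libraries, and its interval in the authors' deposited table ran from 0.65-fold to 1.15-fold. GENCODE 29 also names 74 pseudogenes of HNRNPA1, 16 of HNRNPA3 and 9 of HNRNPC, so the levels of those 3 genes are uncertain by the reads their copies could take or give.

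**Figure D2:**
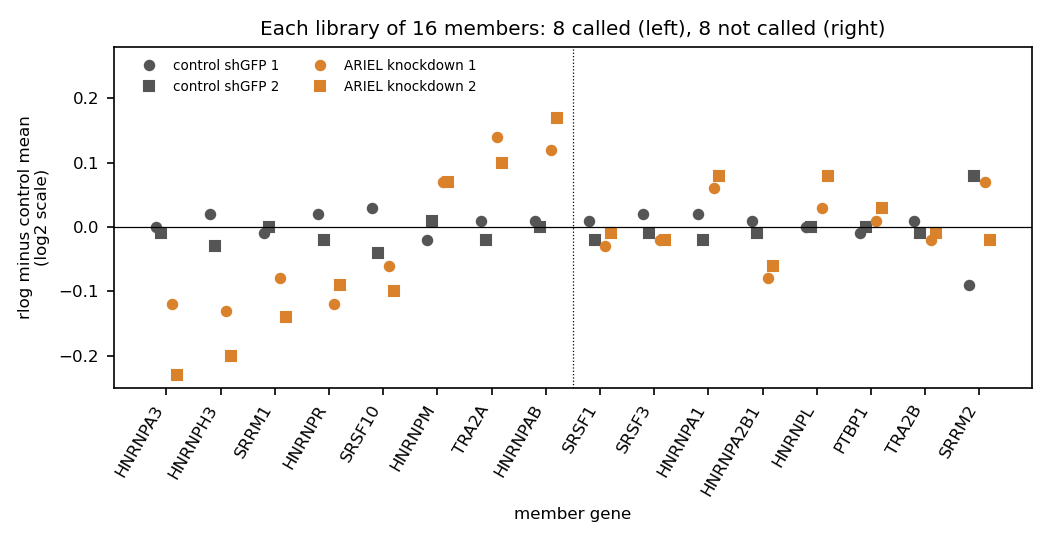
rlog value of each library minus the control mean of the gene (y axis, log2 scale) for 16 members, controls in grey and knockdowns in orange, circles for replicate 1 and squares for replicate 2. In the 8 called members on the left the 2 groups do not overlap, while among the 8 on the right SRRM2 shows the widest spread within a group, from 14.20 to 14.37 in control.

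Of the 8 genes of the C, K, M, R and U families 1 rose, 1 fell and 6 were not called. HNRNPR, which resembles the translation and splicing regulator SYNCRIP, was at 15.27 and 15.23 in control and 15.13 and 15.16 in knockdown libraries, with no overlap. In the authors' deposited table HNRNPR was 1.14-fold lower. It fell by 0.10 ± 0.03 on the log2 scale (SE; limma, adjusted p = 0.00413), and it was not called without control replicate 1 (-0.08, adjusted p = 0.0931) or without knockdown replicate 1 (-0.09, 0.0744). HNRNPM, a regulator of alternative exons that binds GU-rich RNA, was at 13.86 and 13.89 in control and 13.95 and 13.95 in knockdown libraries. Its rise of 0.07 ± 0.03 (adjusted p = 0.0485) was the weakest call. It was not called without control replicate 1 (adjusted p = 0.226), knockdown replicate 1 (0.189) or knockdown replicate 2 (0.178), nor with no filter on low rows (0.0722).

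HNRNPC, which measures the length of nascent RNA and competes with U2AF2 for uridine tracts, differed by -0.04 ± 0.04. HNRNPK, a poly-C binder, differed by 0.01 ± 0.03. The scaffold protein gene HNRNPU and its relatives HNRNPUL1 and HNRNPUL2 differed by -0.05 ± 0.03, -0.05 ± 0.03 and -0.07 ± 0.04. In those 3 genes both knockdown libraries lay below both controls, and none was called. HNRNPUL2 would be called lower without control replicate 1 (-0.12, adjusted p = 0.0103).

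hnRNP F/H proteins bind runs of guanines. HNRNPH3 was at 11.97 and 11.92 in control and 11.82 and 11.75 in knockdown libraries, with no overlap. It fell by 0.16 ± 0.04 on the log2 scale (SE; limma, adjusted p = 7.13e-05), the call held when any 1 library was left out (adjusted p up to 0.0397), and the gene was 1.23-fold lower in the authors' deposited table. PBLD and RUFY2 overlap HNRNPH3 on the opposite strand, as PHYKPL does HNRNPAB. The libraries were strand-specific, but whether strand was used in counting is not stated. On the same strand, protein-coding genes overlap HNRNPUL2 (HNRNPUL2-BSCL2), HNRNPH2 (RPL36A-HNRNPH2), HNRNPL (AC008982.1) and SRSF1 (AC015813.2). How reads in those overlaps were counted is not stated either. The other 3 genes of the F/H family were not called: HNRNPH1 and HNRNPH2 both differed by 0.00 ± 0.03 and HNRNPF by 0.05 ± 0.03.

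None of the 4 genes of the hnRNP L and PTB group was called. HNRNPL, which with HNRNPLL controls the CD45 exons that T cells skip on activation, was at 14.73 and 14.73 in control and 14.76 and 14.81 in knockdown libraries. Both knockdown values were above both controls, and the difference was 0.06 ± 0.03 (SE; limma, adjusted p = 0.104). HNRNPLL was at 12.43 and 12.36 against 12.34 and 12.31, a difference of -0.07 ± 0.04 (adjusted p = 0.111) that would be called without control replicate 2 (-0.10, 0.0290). With the trend with GC content and length removed HNRNPLL was at 0.01 and HNRNPL at 0.02. PTBP1, the polypyrimidine tract repressor of exons, was at 15.03 and 15.04 in control and 15.05 and 15.07 in knockdown libraries. Its difference of 0.02 ± 0.03 was within its error, and its interval in the authors' deposited table was 0.96-fold to 1.10-fold. PTBP3, its paralogue in blood cells, also differed by 0.02 ± 0.03.

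Over all members the 2 groups did not overlap in 27 of 39 (69.2%), close to the 70.7% of tested rows. Replicates were tight as well. The median gap between the 2 libraries of a group was 0.03 in control and 0.025 in knockdown libraries over the members, with the largest at 0.17 in control (SRRM2) and 0.12 in knockdown libraries (HNRNPA3). Among the 27 are members such as SRSF3 and PTBP1, whose difference is within its error.

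Ordered by level per kilobase of coding transcript (the union of all exons of a gene's coding transcripts in GENCODE 29), HNRNPA1 was highest with a mean of 14.93 on the rlog scale, followed by HNRNPK at 14.65, HNRNPF at 14.44, HNRNPC at 14.43, SRSF1 at 14.37 and SRSF2 at 14.32. HNRNPF and HNRNPC, next to each other in that order, do not differ beyond the spread of their libraries. At the other end were HNRNPLL (9.94), HNRNPUL2 (9.87), HNRNPCL1 (5.44) and SRSF12 (1.95). Of the members that fell, HNRNPR (12.23), SRSF10 (11.68), HNRNPA3 (11.45), HNRNPH3 (10.64) and SRRM1 (10.42) lay in the lower part of the order, outside the 20 highest. Of those that rose, HNRNPAB was at 13.51 (rank 9), HNRNPM at 12.40 (rank 21) and TRA2A at 10.27 (rank 34). HNRNPM and TRA2A thus also lay outside the 20 highest.

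GC content moved with these results. The members that fell had a median transcript GC content of 37.3% and those that rose one of 54.2%, and the median was 42.3% for all members and 49.4% for all tested rows that have a value. Across the 39 members the difference and GC content had a Spearman's rho of 0.40, as a description over genes that share the 4 libraries, and over all tested rows it was 0.41. The same trend separated libraries of one group: replicate 2 minus replicate 1 had a rho with GC content of 0.50 in control and 0.36 in knockdown libraries over the members. Of the 29 members with GC content below the median of tested rows 16 had a negative difference, and of the 10 others 2 did.

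With each library's trend over GC content and length removed, 9 members were called higher and 5 lower, in place of 3 and 5 (35.9% of members; among the 12719 rows with both properties 28.9% were higher and 24.1% lower). Of the 8 calls 5 remained: HNRNPAB (0.09, adjusted p = 0.000158), TRA2A (0.16, 2.41e-05), HNRNPA3 (-0.07, 0.00910), HNRNPH3 (-0.12, 0.000373) and SRRM1 (-0.08, 0.00797). The fall of HNRNPA3 was thereby reduced from -0.17 to -0.07, and its SE from 0.03 to 0.02. HNRNPR (0.03, adjusted p = 0.309) and SRSF10 (0.02, 0.379) changed sign and were not called, and HNRNPM (0.04, 0.0928) lost its call.

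Another 9 members were called only once the trend was removed. PTBP3, whose GC content is 36.6%, went from 0.02 to 0.14 (adjusted p = 8.52e-07), HNRNPA1 from 0.07 to 0.12 (8.37e-05) and HNRNPA0 from 0.04 to 0.11 (6.90e-05). SRSF7 (0.07), SRSF11 (0.08), SRSF12 (0.11) and HNRNPF (0.06) were also called higher, and HNRNPUL1 (-0.08) and HNRNPUL2 (-0.07) lower. The SE changed as well, from 0.03 to 0.02 for HNRNPF but from 0.02 to 0.03 for SRSF12. For HNRNPUL2 the difference stayed at -0.07 while the SE went from 0.04 to 0.03. A new call thus need not mean a larger difference. SRSF12, nearly silent in these cells and not called in the authors' deposited table (adjusted p = 0.455), went from 0.03 to 0.11. In 30 of 39 members the difference was then positive, with a median of 0.02, against 0.01 for all rows in that fit. After removal the rho of the members' difference with GC content was -0.34. The part of GC content in the differences of single members was not tested further.

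**Figure D3:**
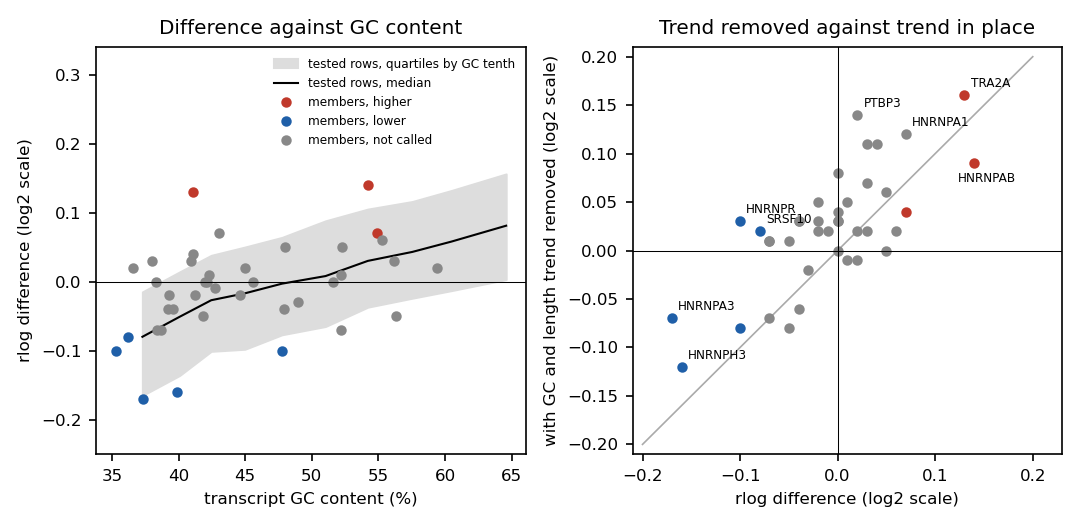
Left, rlog difference (y axis, log2 scale) against transcript GC content in percent, with members as points coloured by call and all tested rows as their median (line) and quartiles (band) in 10 bins of GC content. Right, the members' difference with the GC and length trend removed (y axis) against the difference with it in place (x axis), both on the log2 scale with the line of equal values, where HNRNPR goes from -0.10 to 0.03 and PTBP3 from 0.02 to 0.14.

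Of 162 tested genes in 8 lists of the machinery with which these regulators work, 41 rose and 27 fell, with a median difference of 0.03. The share called, 42.0%, was near the 44.4% of all tested rows. Without knockdown replicate 2 the counts dropped to 17 higher and 14 lower, and with the GC and length trend removed 65 were higher and 24 lower. In the U2 snRNP and branch site list 5 of 20 rose and 4 fell. The largest rises there were SF3B5 (0.24 ± 0.03, SE) and SF3A3 (0.14 ± 0.03) and the largest falls SF3B4 (-0.12 ± 0.04) and SF3A1 (-0.11 ± 0.03), all subunits of the SF3 complexes that hold the branch site. With the GC and length trend removed SF3B5 was at 0.17, SF3A3 at 0.16, SF3B4 at -0.16 and SF3A1 at -0.10. Without knockdown replicate 2 the list had 3 rises and 0 falls, and without control replicate 1 it had 2 falls. SF3B4 had an adjusted p of 0.277 without knockdown replicate 2 and 0.144 without control replicate 2, and SF3A1 one of 0.0512 without knockdown replicate 2, while SF3B5 and SF3A3 were called in each fit that left out 1 library. Among 8 U1 and 5′ splice site factors SNRPC (0.12) and LUC7L (0.09) rose and PRPF40B (-0.14) fell. None of them was called without knockdown replicate 2 (limma, adjusted p = 0.0586, 0.208 and 0.122). LUC7L was also lost without control replicate 1 (0.0553) or knockdown replicate 1 (0.0588), and PRPF40B without control replicate 2 (0.137).

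Sm and LSm proteins, the rings around the spliceosomal RNAs, had 5 of 14 members higher and 2 lower. LSM6 went from 11.26 and 11.25 in control to 11.63 and 11.65 in knockdown libraries, 1.65-fold higher in the authors' deposited table, and LSM7 rose by 0.20 ± 0.03 (SE). LSM5 (-0.21 ± 0.03) and SNRPE (-0.16 ± 0.03) fell. With the GC and length trend removed LSM6 was at 0.42, LSM7 at 0.11, LSM5 at -0.12 and SNRPE at -0.13. These 4 genes were called in each fit that left out 1 library, and the count of rises was 3 without control replicate 2 or without knockdown replicate 2. In the tri-snRNP list 5 of 18 rose, led by TXNL4A (0.14) and EFTUD2 (0.12), and 2 fell, PRPF38B (-0.10) and SNRNP40 (-0.09). Without knockdown replicate 2 that list had 2 rises and 0 falls, and SNRNP40 was not called without control replicate 1 (adjusted p = 0.134) or knockdown replicate 1 (0.162) either. PRPF38B was at -0.05 with the GC and length trend removed (adjusted p = 0.0504). In the PRP19 and catalytic step list 4 of 24 rose, DDX41 (0.14) and DHX8 (0.11) the most, and 4 fell. The latter included CDC40, a second-step factor, from 12.87 and 12.80 to 12.52 and 12.47, and CWC15 (-0.30 ± 0.03). Without knockdown replicate 2 the list's rises went to 0 (adjusted p = 0.0550 for DDX41 and 0.184 for DHX8) and its falls were still 4. With the GC and length trend removed it had 8 rises.

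Upstream of the members, in the list of SR protein kinases and import receptors, 2 of 13 rose and 4 fell. TNPO1, the transportin that carries hnRNP A proteins into the nucleus, had the largest fall of the list: 14.85 and 14.79 in control, 14.53 and 14.46 in knockdown libraries, a difference of -0.32 ± 0.03 (SE; limma, adjusted p = 1.25e-22) and 1.49-fold lower in the authors' deposited table. With the GC and length trend removed it was -0.22 (adjusted p = 2.01e-11). DYRK1A, a kinase of nuclear speckles, differed by -0.11 ± 0.03, the kinase gene PRPF4B rose by 0.17 ± 0.03 and CDK11A rose by 0.11 ± 0.04. DYRK1A was at -0.05 with that trend removed (adjusted p = 0.0308), and the list then had 6 rises. Without knockdown replicate 2 the list had 1 rise and 1 fall, and DYRK1A (adjusted p = 0.0523) and CDK11A (0.213) were not called. CDK11A was also not called without control replicate 1 (0.0635).

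Splicing regulators outside the 2 families had 12 of 50 members higher and 9 lower. CELF2, which shapes alternative splicing in activated T cells, was at 13.60 and 13.57 in control and 13.25 and 13.23 in knockdown libraries, a difference of -0.35 ± 0.03 (SE; limma, adjusted p = 2.10e-24) and 1.54-fold lower in the authors' deposited table. The muscleblind paralogues moved apart, MBNL1 by 0.21 ± 0.03 and MBNL3 by -0.26 ± 0.04. KHSRP rose by 0.16 ± 0.03. These 4 genes were called in each fit that left out 1 library. The list's 12 rises became 7 without control replicate 1, 6 without knockdown replicate 2 and 24 with the GC and length trend removed. In the exon junction and NMD list, the pathway that removes poison-exon transcripts, 6 of 15 rose and 1 fell (46.7%, near the share of all tested rows), with SMG9 at 0.19 ± 0.04, EIF4A3 at 0.14 ± 0.03 and UPF3B at -0.10 ± 0.04. UPF3B was not called in the authors' deposited table (adjusted p = 0.0592) and lost its call without control replicate 2, knockdown replicate 1 or knockdown replicate 2 (adjusted p = 0.272, 0.178 and 0.134) and once the trend with GC content and length was removed (0.0981). The 6 rises became 2 without knockdown replicate 2, where EIF4A3 had an adjusted p of 0.0540, and 3 with no filter on low rows or with no trend on level. No set test was made, and the difference in the share called between the members and these lists was not tested.

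**Figure D4:**
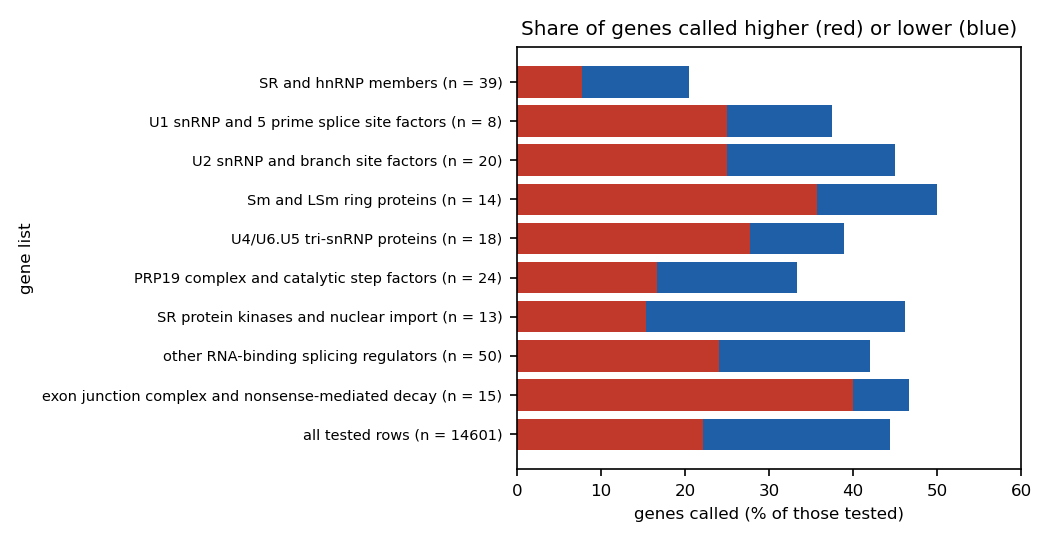
Share of tested genes called higher (red) and lower (blue) in percent (x axis, stacked bars) for the 39 members, the 8 lists of splicing and decay factors and all 14601 tested rows. The bar of the members ends at 20.5%, the bar of all rows at 44.4% and those of the lists between 33.3% and 50.0%.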

How the data were processed

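The submitters' processing notes name DESeq2 1.12.4, HTSeq 0.6.1, STAR 2.5.2a and the hg19 build without saying what each did; the gene models, strand setting and filters behind the table were not given in the sources used here. The deposited table has, per the file headers, an rlog (log2) for every gene in each library, and a log2 fold change with its SE, a test score, a p-value and an adjusted p-value. The table holds no counts, so depth is unknown, and it holds 0 spike-in rows. limma 3.58.1 (R 4.3.3; lmFit, eBayes with a trend on level) was run on rlog values of rows with a mean of at least log2 of 10, adjusted by Benjamini-Hochberg over 14601 rows at 0.05. Prior degrees of freedom were infinite, so rows of one level share 1 spread; the median SE was 0.04. The script was tested on simulated data.

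Members and lists were chosen with earlier results of these data known. Members given in full were the called ones, 8 of interest (SRSF1, SRSF3, HNRNPA1, HNRNPA2B1, HNRNPL, PTBP1, TRA2B and SRRM2) and those whose call differs in the deposited table; from each list, up to 2 called genes with the largest rise and 2 with the largest fall. For the trend, GC content and length come from the longest coding transcript in GENCODE 29, matched by gene ID for all 39 members (another build than the files', so no coordinates are given); it was removed by splines with 5 degrees of freedom each. Levels per kilobase use the union of exons of a gene's coding transcripts. Whether the deposited fold changes were shrunken is not stated. The background at a mean rlog of at least 13 was chosen after seeing the data. Python 3.11.15, pandas 2.3.3 and Biopython 1.88 were used.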

Additional observations from a re-analysis of the deposited data

How the results depend on the processing

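Of 15 alternative settings, those that left out 1 library gave 2004 to 3061 rows higher and 2221 to 3127 lower over the table, in place of 3224 and 3264. For the members they gave 1 to 4 higher and 3 to 6 lower, and for the 8 other lists 17 to 37 higher and 14 to 30 lower, in place of 41 and 27. The lowest counts of members came without knockdown replicate 1 (1 higher and 3 lower), with 3 lower also without knockdown replicate 2; over the table and the other lists the lowest came without knockdown replicate 2. When no spread was shared between rows (2 residual degrees of freedom), limma's linear fit called 0 rows, 0 members and 0 genes of the other lists in either direction, with 4561 rows (31.2%) and 6 members (15.4%) at an unadjusted p under 0.05, so every call rests on sharing the spread between rows. HNRNPA3, HNRNPH3 and HNRNPAB kept their calls in all the other 14 settings. Of all 15 settings, TRA2A and SRRM1 each kept their call in 13, HNRNPR in 10, HNRNPM in 6 and SRSF10 in 5. With the trend with GC content and length removed 9 members were higher and 65 genes of the other lists, or 9 and 64 together with the replicate block, and HNRNPR (0.03 in both) and SRSF10 (0.02 in both) changed sign. Quantile normalization called 4 members higher and 8 lower. The replicate block, which takes the numbers in the titles as pairs, called 5 members higher and 8 lower. The replicate differences of the 2 groups correlated at 0.20 over rows, but with 2 pairs the numbers are not shown to pair the libraries. Low rows such as SRSF12 and HNRNPCL1 are limited by their wide deposited intervals; no counting error can be given.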
